A study of Mus musculus with 13 samples.

Results

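The Notch pathway genes described here are 31 genes named by their place in the pathway and matched by symbol in the authors' deposited gene table, which lists 35734 genes. All 31 were found there, all 31 had reads that could be assigned to them, and all 31 passed the filter on low counts, among 15597 genes tested. They are 5 ligands (Dll1, Dll3, Dll4, Jag1, Jag2), 4 receptors (Notch1 to Notch4), 3 fringe glycosyltransferases (Lfng, Mfng, Rfng), 4 proteases or protease subunits (Adam10, Adam17, Psen2, Ncstn), 4 genes of the nuclear complex (Rbpj, Maml1, Maml2, Maml3), 4 modulators (Numb, Numbl, Dtx1, Dtx4) and 7 targets or Hes family genes (Hes1, Hes5, Hes6, Hey1, Hey2, Heyl, Nrarp). They were measured by RNA-seq in 4 control and 4 Ikzf1 libraries of mouse retinal cells.

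Both groups came from CD1 retinas of postnatal day 0, the day of birth, that were dissociated, transfected, plated in culture for 9 h and sorted for green fluorescent protein (GFP). The control cells carried GFP alone, with 400000 cells per replicate, and the Ikzf1 cells carried Ikzf1 and GFP, with 300000 cells per replicate. The protein of Ikzf1 is Ikaros, a zinc finger factor known from early retinal progenitors and from lymphocytes. The labels give neither the promoter of the plasmids used for RNA-seq nor the number of animals behind a replicate. They call the replicates biological replicates, and the p-values measure the spread between these libraries. A further 5 CUT&RUN libraries of the series, which map protein binding to DNA, were not analysed here.

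Notch signalling passes between touching cells. A Delta or Jagged ligand on one cell binds a Notch receptor on its neighbour, an Adam protease and then gamma-secretase cut the receptor, and the freed intracellular domain joins Rbpj and a Mastermind coactivator on DNA. The genes switched on include the Hes and Hey repressors, which hold back proneural genes. In the developing retina this keeps cells as progenitors, and loss of Notch1 from progenitors is known to release photoreceptor fates, while late Notch activity favours Müller glia.

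The libraries held 21.4 to 30.5 M estimated read pairs. The Ikzf1 gene, which checks the labels, stood at 74.8 ± 7.73 CPM (reads of a gene per 1 M reads of the library, scaled by TMM) in the controls and 182240 ± 7334 CPM with Ikzf1 (n = 4 each, SD), which includes reads of the plasmid. It took 15.9 to 17.2% of the reads of each Ikzf1 library. The labels name the cells as retinal progenitors. All 10 progenitor markers had reads, with a summed level of 1813 to 1890 CPM in the controls and 1630 to 1637 CPM in the Ikzf1 libraries. Markers of other retinal classes were present too, with 8 rod precursor markers summing to 1087 to 1266 CPM in the controls and 724 to 833 CPM in the Ikzf1 libraries. The sorted cells were thus a mixture by their markers, and in such bulk samples fewer cells of a type and less RNA per cell cannot be told apart.

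Promoter sequence was examined for the letters TGGGAA, the core that RBPJ binds. Its last letters, GGGAA, are also the core of sites bound by Ikaros family proteins. Both strands were searched in the RefSeq promoter windows of build GRCm38.p6, which run from 250 bases before to 50 bases after a RefSeq start of a gene. Windows were given for 26 of the 31 genes, and not for Hes1, Hey1, Heyl, Mfng and Dtx4. TGGGAA lay in 7 of these 26 (26.9%), in Lfng, Rbpj, Maml2, Maml3, Psen2, Hes5 and Hey2, against 28.3% of the 27025 genes of the table and 25.6% of its 32851 windows of the same length. The share was close to that of all promoters. The longer GTGGGAA, each match of which also holds TGGGAA, lay in 4 of 26 (15.4%), in Lfng, Psen2, Hes5 and Hey2, against 7.25% of all genes.

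The 250 bases before the start are printed for 5 genes, 5′ to 3′ on the strand of the gene, with TGGGAA or its reverse complement TTCCCA in capitals. Lfng, Rbpj and Maml3 are shown because they hold TGGGAA and had lower levels with Ikzf1. Hes5 is shown because it holds TGGGAA in both directions and did not pass the test. Jag1 is shown because it had the highest rise and holds no TGGGAA in this window. The shorter GGGAA does occur in the printed Jag1 sequence, and GGGAA alone was not counted in any promoter. The 5 genes were chosen after the expression values were seen. The windows are chr5:140607091-140607340 (plus strand) for Lfng, chr5:53590096-53590345 (plus) for Rbpj, chr3:52105007-52105256 (minus) for Maml3, chr4:154960673-154960922 (plus) for Hes5 and chr2:137116521-137116770 (minus) for Jag1, the first window of each gene in the table. The Rbpj window precedes a RefSeq start that lies inside the gene as the authors' table gives it (53466152 to 53657362), not at its outer end. In that table Lfng, Maml3 and Jag1 start within their printed windows, at 140607320, 52105076 and 137116644. Part of each of these windows thus lies inside the gene by that table.
Lfng: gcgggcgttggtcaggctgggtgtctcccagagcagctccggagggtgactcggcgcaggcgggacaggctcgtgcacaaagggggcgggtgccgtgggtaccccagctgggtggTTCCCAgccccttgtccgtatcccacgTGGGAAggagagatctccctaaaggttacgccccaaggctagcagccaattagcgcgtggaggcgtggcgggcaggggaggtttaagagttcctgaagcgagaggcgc
Rbpj: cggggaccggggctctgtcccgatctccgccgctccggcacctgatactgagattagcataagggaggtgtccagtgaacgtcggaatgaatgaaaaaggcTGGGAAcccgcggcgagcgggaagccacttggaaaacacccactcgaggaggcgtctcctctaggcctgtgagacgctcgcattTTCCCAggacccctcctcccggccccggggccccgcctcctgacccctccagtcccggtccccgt
Maml3: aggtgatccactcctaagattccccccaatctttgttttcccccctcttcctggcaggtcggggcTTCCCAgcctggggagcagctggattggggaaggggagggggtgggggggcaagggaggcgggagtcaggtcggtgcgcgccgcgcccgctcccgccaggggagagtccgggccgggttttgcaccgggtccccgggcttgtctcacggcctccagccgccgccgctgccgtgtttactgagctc
Hes5: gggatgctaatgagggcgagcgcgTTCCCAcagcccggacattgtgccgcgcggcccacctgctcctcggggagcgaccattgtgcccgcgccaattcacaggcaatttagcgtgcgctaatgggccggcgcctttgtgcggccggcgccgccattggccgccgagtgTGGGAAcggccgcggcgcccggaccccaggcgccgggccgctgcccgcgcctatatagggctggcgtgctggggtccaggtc
Jag1: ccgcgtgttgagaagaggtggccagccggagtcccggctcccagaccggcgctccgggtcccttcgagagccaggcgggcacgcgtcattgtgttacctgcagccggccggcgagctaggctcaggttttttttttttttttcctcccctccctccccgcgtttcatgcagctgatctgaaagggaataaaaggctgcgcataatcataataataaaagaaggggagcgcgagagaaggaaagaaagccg

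In Lfng the reverse match began 135 bases and the forward match 108 bases before the RefSeq start, and in Rbpj the forward match lay at 149 and the reverse match at 65 bases. Maml3 had a single reverse match at 185 bases. Hes5 had a reverse match at 226 and a forward match at 82 bases. Of the 7 genes with TGGGAA in a window, 5 were lower with Ikzf1 by the test below, 0 were higher and 2 did not pass, where 29.8% of all tested genes were lower and 29.3% higher. Psen2 and Maml2, among the 5, missed the threshold when the test was corrected for transcript length (edgeR adjusted p 0.0535 and 0.217). Of the 19 without TGGGAA, 7 were higher, 6 were lower and 6 did not pass. Of the 4 genes with the longer GTGGGAA, 2 were lower, 0 were higher and 2 did not pass. Calls among all genes that hold either motif were not counted. These counts describe the genes and are no test, and binding at these promoters was not analysed here.

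Which Notch pathway genes moved when Ikzf1 was put into these cells was asked with the quasi-likelihood test of edgeR over all tested genes, with Benjamini-Hochberg adjusted p under 0.05 as the threshold. With Ikzf1 the ligands Jag1, Dll4 and Dll1 rose and the receptor Notch1, the DNA-binding factor Rbpj, the coactivator Maml3 and the target Hes1 fell. The pathway did not move as a block: Lfng and Dll3 fell while Mfng and Hey1 rose, and Hes5 and Hes6 were within the spread of the replicates. In all, 9 of the 31 genes were higher (29.0%), 13 were lower (41.9%) and 9 did not pass. Of all tested genes, 29.3% were called higher, 29.8% lower and 59.0% in either direction, so the share of Notch genes called, 71.0%, stood beside a background in which most genes moved. A log2 fold change of 1 or more in size was called for 2 genes upward and 3 downward (16.1%), against 4.96% upward, 6.39% downward and 11.4% in all of the genes tested.

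**Figure D1:**
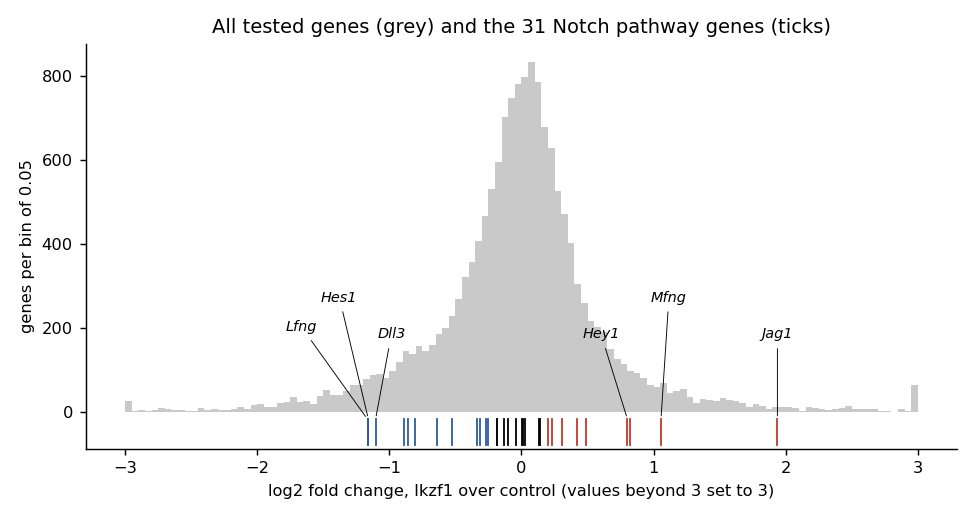
Histogram of the log2 fold change of all 15597 tested genes (grey; x axis, log2 fold change, Ikzf1 over control, with values beyond 3 set to 3; y axis, genes per bin). Ticks under it mark the 31 Notch pathway genes, red for higher, blue for lower and black for an adjusted p of 0.05 or more; they lie across the body of the histogram, with Jag1 at 1.94 farthest up and Lfng and Hes1 at -1.16 farthest down.

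The median log2 fold change of the 31 genes was -0.10, beside 0.00 over all tested genes, and the median of its size was 0.31, beside 0.29. Every Ikzf1 library lay above every control for 8 of the genes and below for 11, while 12 overlapped. Among all tested genes 26.4% lay wholly above, 26.6% wholly below and 53.1% on either side. By role, 4 of 5 ligands were called higher and 1 lower. Lower calls were made for 3 of 4 receptors, 3 of 4 modulators and 3 of 4 nuclear complex genes. Of the 7 targets and Hes genes 4 did not pass. Among all tested genes 29.3% were called higher and 29.8% lower. These counts by role changed with the length correction described below, where Jag2, Notch3, Notch4, Maml2 and Numb lost their calls and Heyl gained a call. The histogram of all fold changes shows where the 31 genes fell among the others.

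When reads were corrected for the mean length of each gene's transcripts, as the authors' deposited table does, 16 of the 22 calls remained. That fit called 9 of the 31 genes higher and 8 lower, against 23.9% higher, 26.1% lower and 50.0% in all among the genes tested. The authors' deposited table called the same 17 genes in the same direction, against a background there of 20.8% higher, 21.0% lower and 41.8% in all. The calls of Jag2, Notch3, Notch4, Psen2, Maml2 and Numb were lost and Heyl was gained. Each of these genes is named again with its value below. Tested against a fold of 1.5 rather than against no change, a choice made after the data were seen, 4 of the 31 genes were higher (Jag1, Dll4, Mfng, Hey1) and 5 lower (Dll3, Notch1, Lfng, Maml3, Hes1), against 6.12% and 8.17% of all genes and 14.3% in both directions.

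**Figure D2:**
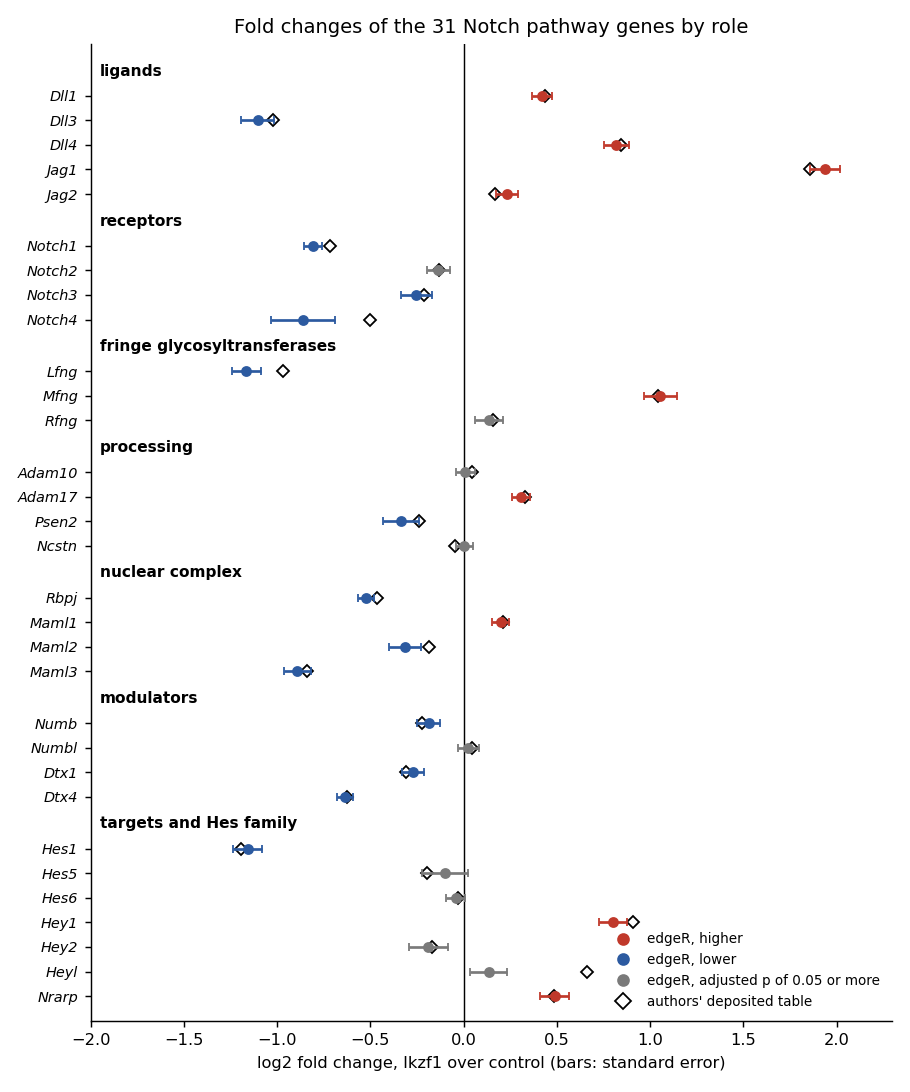
Log2 fold change, Ikzf1 over control, of the 31 genes by role (x axis), from edgeR with its standard error (circles with bars; red higher, blue lower, grey with an adjusted p of 0.05 or more) and from the authors' deposited table (open diamonds). Ligands lie mainly to the right, receptors and nuclear complex genes mainly to the left, and the 2 estimates stand farthest apart for Heyl (0.13 and 0.66) and Notch4 (-0.86 and -0.50).

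Among the ligands, Jag1 rose 3.83-fold. Jag1 (GRCm38 chromosome 2, 137081456 to 137116644, minus strand) encodes the membrane ligand Jagged1. It stood at 7.76, 7.10, 7.87 and 7.34 CPM in control replicates 1 to 4 and at 26.8, 30.6, 29.4 and 28.4 CPM in Ikzf1 replicates 1 to 4. All Ikzf1 libraries were far above all controls, with a log2 fold change of 1.94 (standard error, SE, 0.08, edgeR adjusted p 9.99e-18). Leaving out any 1 library kept it between 1.91 and 1.98.

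Dll4 (chromosome 2, 119325784 to 119335962, plus strand), a Delta ligand of newly formed retinal neurons and of sprouting vessels, stood at 27.4, 26.9, 25.0 and 27.5 CPM in the controls and at 42.7, 51.9, 43.0 and 50.7 CPM with Ikzf1. The groups did not overlap, and Ikzf1 replicates 2 and 4 were the highest. Its log2 fold change was 0.82 (SE 0.07, edgeR adjusted p 2.87e-11). Dll1 (chromosome 17, 15367354 to 15376872, minus strand), the Delta ligand with the most TPM here, stood at 80.9, 71.7, 69.6 and 75.1 CPM in the controls and at 92.1, 102, 98.0 and 105 CPM with Ikzf1. Again every Ikzf1 library was above every control, though by less, with a log2 fold change of 0.42 (SE 0.05, edgeR adjusted p 6.96e-08).

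Dll3 moved the other way. Dll3 (chromosome 7, 28293553 to 28302238, minus strand) is a divergent Delta protein known to act inside the cell against Notch rather than as an activating ligand. It stood at 28.8, 23.4, 21.7 and 22.2 CPM in the controls and at 12.3, 11.04, 10.4 and 10.9 CPM with Ikzf1. The controls were 2.15-fold higher with no overlap (log2 fold change -1.10 ± 0.09 SE, edgeR adjusted p 2.59e-11), and control replicate 1 stood above the others. Jag2, the other Jagged ligand, passed at 44.6 ± 2.87 and 52.4 ± 4.12 CPM (SD, n = 4 each; log2 fold change 0.23, edgeR adjusted p 0.00162). Its groups overlapped, and with the length correction it was at 0.16 with an adjusted p of 0.267.

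**Figure D3:**
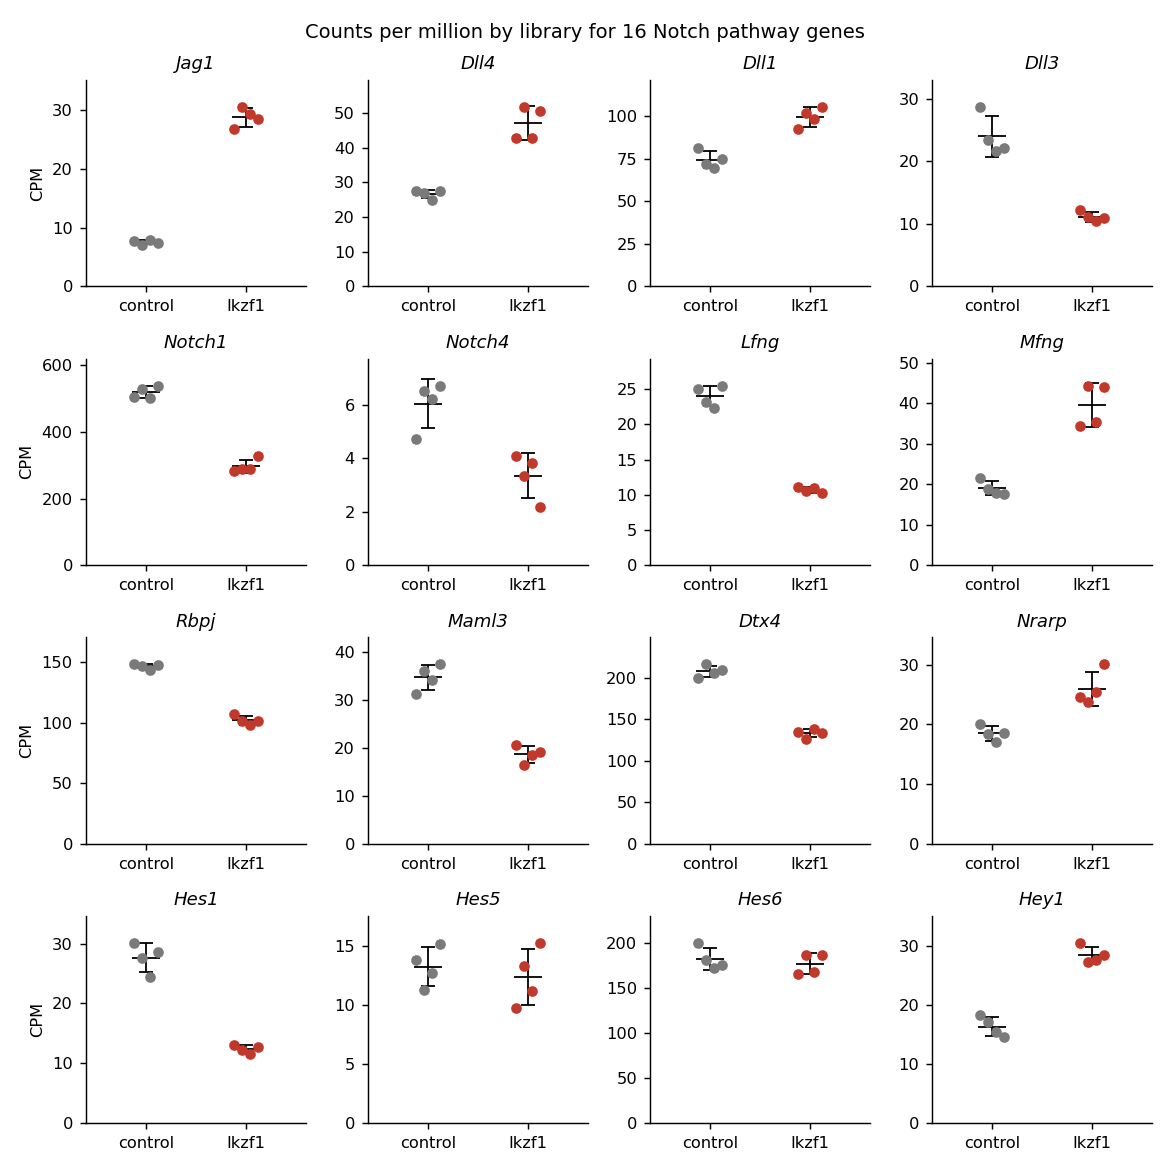
CPM of 16 Notch pathway genes in each library (y axis, linear from 0), controls in grey and Ikzf1 libraries in red, with the group mean and SD in black (n = 4). For Jag1 the 4 Ikzf1 libraries lie between 26.8 and 30.6 against 7.10 to 7.87 in the controls, and for Hes5 and Hes6 the points of the groups lie in the same range.

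Levels of different genes were compared per transcript length, in TPM, which counts the transcripts of a gene among 1 M transcripts of the library. Since Ikzf1 took 17.0 to 18.6% of all TPM in its own libraries, TPM of other genes was also rescaled to leave Ikzf1 out. The median difference of the 31 genes in log2(TPM + 1) was -0.34 before and -0.07 after rescaling. Shares within a role are free of that scale. Dll1 held 48.1% ± 1.43 of the ligand TPM in the controls and 51.8% ± 2.26 with Ikzf1, Jag1 went from 2.02% ± 0.158 to 5.97% ± 0.675, Dll4 from 9.86% ± 0.888 to 14.05% ± 1.01 and Dll3 from 14.8% ± 0.929 to 5.73% ± 0.813 (SD, n = 4 each). The groups did not overlap for any of the 4, while Jag2, at 25.2% and 22.5%, overlapped. Jag1 was thus still a minor ligand by TPM after its rise, at 11.2 ± 0.961 rescaled TPM beside 97.8 ± 6.56 for Dll1.

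Of the receptors, Notch1 fell 1.75-fold. Notch1 (chromosome 2, 26457903 to 26516663, minus strand) is the main receptor of retinal progenitors and held 86.6% ± 1.04 of the receptor TPM in the controls. It stood at 506, 530.2, 503 and 539 CPM in the controls and at 282, 289, 287 and 327 CPM with Ikzf1. No library of one group came near the other, and Ikzf1 replicate 4 was the highest of its group. The log2 fold change was -0.81 (SE 0.05, edgeR adjusted p 2.21e-14). Its share of receptor TPM was 82.0% ± 1.06 with Ikzf1, while the share of Notch2 went from 7.99% ± 0.277 to 11.5% ± 1.01 without overlap (SD, n = 4 each).

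The other receptors gave weaker results. Notch4 (chromosome 17, 34564268 to 34588503, plus strand), best known from blood vessels, stood at 4.73, 6.53, 6.20 and 6.72 CPM in the controls and at 4.08, 3.34, 3.80 and 2.16 CPM with Ikzf1. The lowest control lay just above the highest Ikzf1 library, and the gene rested on 61 to 193 reads per library. It passed at a log2 fold change of -0.86 (SE 0.17, edgeR adjusted p 0.000103), and with the length correction it did not (-0.67, adjusted p 0.203). Notch3 passed at -0.25 (edgeR adjusted p 0.00989) with overlapping groups, at 20.4 ± 1.72 and 17.1 ± 1.65 CPM, and it too did not pass with the length correction (-0.23, adjusted p 0.0881). Notch2 stood at 75.6 ± 5.47 and 68.8 ± 6.23 CPM (SD, n = 4 each) and missed the threshold (-0.14, edgeR adjusted p 0.0613). It passed without control replicate 1 (-0.18, adjusted p 0.0116) or without Ikzf1 replicate 4 (-0.19, adjusted p 0.00446).

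Vessel cells express Notch4, Dll4 and Jag1, so endothelial markers were read beside them. Of 9 markers 7 had enough reads, and their sum was 511 to 580 CPM in the controls and 227 to 270 CPM with Ikzf1. Kdr, at 438 and 216 CPM, and Flt1, at 102 and 19.2 CPM, made up most of it. The more specific Pecam1 was at 3.06 and 2.91 CPM, and Cdh5 and Emcn had a mean of 1.78 and 0.537 normalised counts over all libraries in the authors' deposited table. Of 6 markers tested, 3 were lower, 0 were higher and 3 did not pass. The share called, 50%, was not above the 59.0% of all tested genes, of which 29.8% were lower and 29.3% higher. Their part in the values of Notch4, Dll4 and Jag1 was not tested.

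The fringe genes moved in opposite directions. Fringe enzymes add a sugar to Notch that changes how well it answers Delta and Jagged ligands. Lfng (chromosome 5, 140607320 to 140615545, plus strand), whose promoter is printed above, stood at 25.0, 23.2, 22.3 and 25.5 CPM in the controls and at 11.1, 10.6, 10.9 and 10.2 CPM with Ikzf1. The controls were 2.24-fold higher and the groups lay far apart relative to their spread (log2 fold change -1.16 ± 0.08 SE, edgeR adjusted p 4.35e-13). Mfng (chromosome 15, 78755882 to 78773475, minus strand) stood at 21.6, 18.9, 17.97 and 17.7 CPM in the controls and at 34.4, 44.4, 35.3 and 44.0 CPM with Ikzf1. It rose 2.08-fold with no overlap, and Ikzf1 replicates 2 and 4 were again the highest (log2 fold change 1.06 ± 0.09 SE, edgeR adjusted p 2.28e-09). Rfng stood at 24.1 ± 1.95 and 26.6 ± 2.57 CPM (SD, n = 4 each) and did not pass (0.14, edgeR adjusted p 0.117), though it did without control replicate 1 (0.20, adjusted p 0.0319) or Ikzf1 replicate 1 (0.19, adjusted p 0.0373).

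By TPM the 3 fringe genes were near even in the controls, with 36.1% ± 2.54 for Lfng, 35.4% ± 1.92 for Mfng and 28.4% ± 0.872 for Rfng. With Ikzf1 the shares were 14.7% ± 3.11, 59.7% ± 3.25 and 25.7% ± 0.894 (SD, n = 4 each). The order of Lfng and Mfng differed among the control libraries, whereas Mfng held the most in all 4 Ikzf1 libraries.

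**Figure D4:**
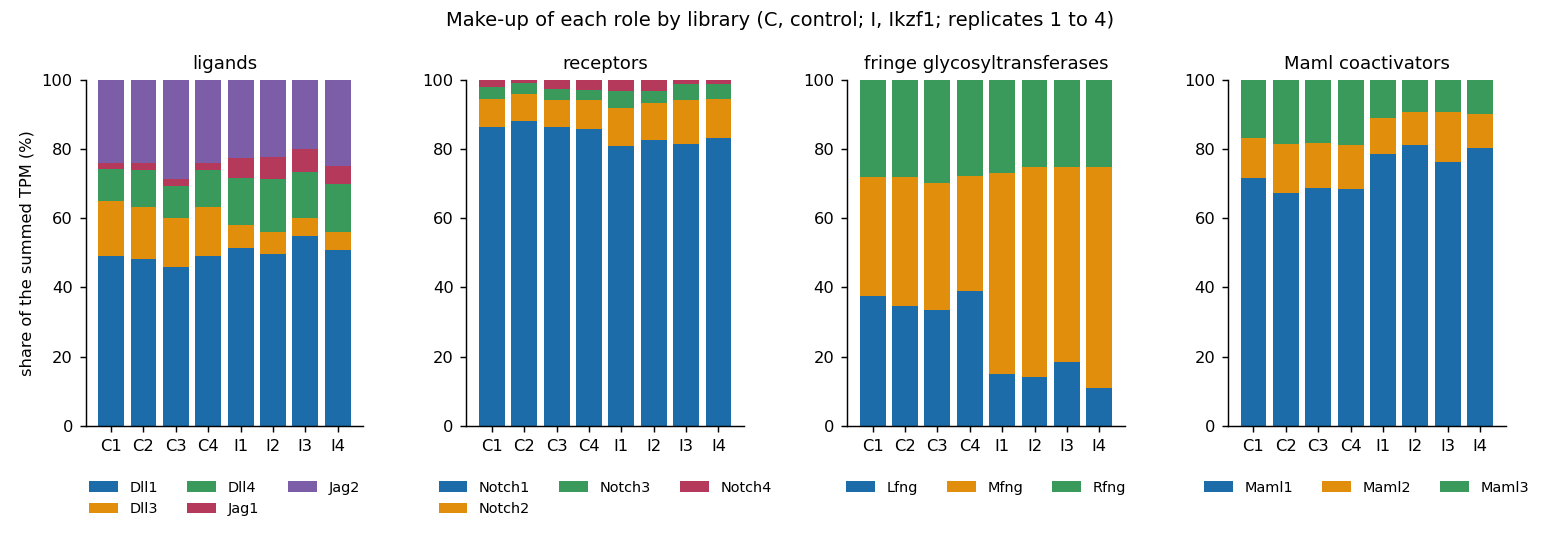
Share of the summed TPM of a role (y axis, percent from 0) held by each gene in each library (C1 to C4, controls; I1 to I4, Ikzf1 libraries), for ligands, receptors, fringe glycosyltransferases and Maml coactivators. Lfng shrinks from 36.1% to 14.7% on average while Mfng grows from 35.4% to 59.7%, and Dll3 and Maml3 shrink in every Ikzf1 library.

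Among the 4 protease genes of the 31, Adam17 was higher, Psen2 was lower, and Adam10 and Ncstn did not pass. Adam17, one of the proteases that can make the first cut, stood at 63.5, 63.0, 58.1 and 62.6 CPM in the controls and at 76.7, 75.2, 77.1 and 76.9 CPM with Ikzf1. All 4 Ikzf1 libraries were above the controls (log2 fold change 0.31 ± 0.05 SE, edgeR adjusted p 2.40e-06). Adam17 overlaps Iah1 on the other strand, and the sources do not state whether counting used strand, so part of its reads is uncertain. Adam10, the main protease for ligand-bound Notch, was at 111 ± 4.76 and 112 ± 8.37 CPM (0.01, edgeR adjusted p 0.889). Ncstn, the nicastrin subunit of gamma-secretase, was at 101 ± 4.46 and 101 ± 2.40 CPM (0.00, edgeR adjusted p 0.943). It overlaps the abundant Copa on the other strand. Psen2, a catalytic subunit of gamma-secretase, passed at -0.34 (13.0 ± 0.891 and 10.3 ± 1.27 CPM; SD, n = 4 each; edgeR adjusted p 0.00431), and missed the threshold with the length correction (-0.26, adjusted p 0.0535).

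In the nuclear complex Rbpj and Maml3 fell. Rbpj (chromosome 5, 53466152 to 53657362, plus strand), the DNA-binding factor shared by all Notch receptors, stood at 148, 147, 143 and 148 CPM in the controls and at 107, 101, 98.3 and 101 CPM with Ikzf1. The spread within each group was small and the groups lay apart, 1.44-fold (log2 fold change -0.52 ± 0.04 SE, edgeR adjusted p 1.84e-11). Maml3 (chromosome 3, 51685907 to 52105076, minus strand), a Mastermind coactivator, stood at 31.3, 36.0, 34.1 and 37.4 CPM in the controls and at 20.6, 16.5, 18.6 and 19.2 CPM with Ikzf1. It was lower in every Ikzf1 library, 1.86-fold on average (log2 fold change -0.89 ± 0.07 SE, edgeR adjusted p 3.56e-11).

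The 3 Mastermind genes did not move together. Maml1 rose slightly, from 83.7 ± 3.34 to 96.0 ± 3.76 CPM without overlap (0.20, edgeR adjusted p 0.000564). Maml2 passed at -0.31 (16.5 ± 1.00 and 13.3 ± 1.49 CPM; SD, n = 4 each; edgeR adjusted p 0.00307), and not with the length correction (-0.21, adjusted p 0.217). Of the Maml TPM, Maml1 held 69.1% ± 1.86 in the controls and 79.0% ± 2.14 with Ikzf1, and Maml3 held 18.1% ± 0.894 and 9.90% ± 0.796 (SD, n = 4 each).

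Among the modulators, Dtx4 fell. Dtx4 (chromosome 19, 12466338 to 12501454, minus strand), an E3 ubiquitin ligase of the Deltex family that binds Notch, stood at 199.8, 216, 205 and 209.7 CPM in the controls and at 135, 127, 139 and 133 CPM with Ikzf1. The groups did not overlap (log2 fold change -0.64 ± 0.04 SE, edgeR adjusted p 4.59e-13). Its relative Dtx1 was lower by less, at 53.6 ± 3.67 and 44.3 ± 3.41 CPM without overlap (-0.27, edgeR adjusted p 0.00036). Numb, which opposes Notch in the daughter cell that inherits it, passed at -0.19 with overlapping groups (39.9 ± 1.59 and 35.0 ± 3.06 CPM; edgeR adjusted p 0.0124). Its call was lost with the length correction (-0.24, adjusted p 0.0629) and without Ikzf1 replicate 1 (-0.13, adjusted p 0.0800). Numbl, its close relative, was at 52.5 ± 1.41 and 53.3 ± 4.62 CPM (SD, n = 4 each; 0.03, edgeR adjusted p 0.725).

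Targets of the pathway did not share a direction. Hes1 (chromosome 16, 30064384 to 30067796, plus strand), a Notch target that represses proneural genes, stood at 30.1, 27.6, 24.4 and 28.6 CPM in the controls and at 13.1, 12.1, 11.6 and 12.7 CPM with Ikzf1. The lowest control was well above the highest Ikzf1 library (log2 fold change -1.16 ± 0.08 SE, edgeR adjusted p 5.08e-13). Hey1 (chromosome 3, 8663359 to 8667256, minus strand), a related repressor and Notch target, stood at 18.3, 17.1, 15.3 and 14.6 CPM in the controls and at 30.5, 27.3, 27.6 and 28.4 CPM with Ikzf1. It was higher in all 4 Ikzf1 libraries, 1.74-fold (log2 fold change 0.80 ± 0.08 SE, edgeR adjusted p 5.01e-10). Nrarp (chromosome 2, 25180758 to 25183339, plus strand), a target that feeds back to limit Notch, stood at 20.01, 18.4, 17.0 and 18.6 CPM in the controls and at 24.6, 23.7, 25.3 and 30.0 CPM with Ikzf1. The groups did not overlap, and Ikzf1 replicate 4 was the highest (log2 fold change 0.49 ± 0.08 SE, edgeR adjusted p 5.54e-06).

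Hes5 and Hes6 stayed within the spread of the libraries. Hes5 (chromosome 4, 154960923 to 154962371, plus strand), a Notch target of progenitors and Müller glia, stood at 13.8, 11.2, 12.7 and 15.2 CPM in the controls and at 9.74, 13.2, 11.2 and 15.2 CPM with Ikzf1. The groups overlapped across almost their whole range (log2 fold change -0.10 ± 0.12 SE, edgeR adjusted p 0.504). Hes6 (chromosome 1, 91411483 to 91414038, minus strand), which is known to oppose Hes1 and to favour differentiation, stood at 199.7, 181, 172 and 175 CPM in the controls and at 165, 187, 168 and 187 CPM with Ikzf1 (-0.04 ± 0.05 SE, edgeR adjusted p 0.489). Its groups overlapped too. Hey2 was at 10.9 ± 1.07 and 9.60 ± 1.29 CPM (SD, n = 4 each; -0.19, edgeR adjusted p 0.133), and passed without Ikzf1 replicate 1 (-0.26, adjusted p 0.0495).

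Progenitor markers, whose cells express Hes1, Hes5 and Notch1, are given beside these genes. Of 10 markers 5 were lower, 2 were higher and 3 did not pass. Among all tested genes 29.8% were lower, 29.3% higher and 59.0% called in either direction. Ccnd1 was at 429 and 223 CPM, while Pax6 was at 358 and 446 CPM and the proliferation marker Mki67 at 418 and 457 CPM. Müller glia markers, 8 of 9 with enough reads, summed to 823 to 900 CPM in the controls and 770 to 820 CPM with Ikzf1, with 4 lower and 1 higher. Aqp4, a marker of mature Müller glia, had a mean of 1.27 normalised counts in the authors' deposited table. The part of these marker changes in the values of Hes1 and Notch1 was not tested.

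By TPM Hes6 was the most abundant of the 31 genes in the controls, at 280 ± 18.3 (SD, n = 4), followed by Notch1 at 151 ± 14.2 and Ncstn at 93.8 ± 2.50. These 3 steps exceeded the spread of the controls. Below them Dtx4 and Dll1 overlapped, and each pair of neighbours in the order from Adam10 down to Mfng overlapped as well. The lowest levels were those of Notch4, at 3.80 ± 1.39 TPM, and Jag1, at 2.90 ± 0.277 TPM, and these 2 overlapped. Within the Hes, Hey and Nrarp group, Hes6 held 70.4% ± 1.37 of the TPM in the controls and 71.4% ± 1.45 with Ikzf1. The share of Hes1 went from 11.4% ± 0.321 to 5.08% ± 0.287 and that of Hey1 from 3.81% ± 0.105 to 7.49% ± 0.816, so that Hey1 stood above Hes1 in every Ikzf1 library and below it in every control.

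Heyl was the 1 gene of the 31 that gained a call with the length correction, while Jag2, Notch3, Notch4, Psen2, Maml2 and Numb lost theirs. Heyl (chromosome 4, 123233556 to 123249875, plus strand), a further Hey repressor, was at 11.7 ± 1.13 and 12.9 ± 1.77 CPM (SD, n = 4 each) and did not pass by reads (0.13, edgeR adjusted p 0.263). With the length correction it was at 0.68 (edgeR adjusted p 0.00581), and at 0.66 in the authors' deposited table (adjusted p 0.000478). Its main transcript, ENSMUST00000040821.4, held 85.9, 96.6, 73.5 and 89.1% of the gene's TPM in the controls and 63.4, 62.0, 69.6 and 41.5% with Ikzf1. The groups did not overlap, though the lowest control, at 73.5%, lay near the highest Ikzf1 library, at 69.6%. Heyl was the 1 gene of the 31 without overlap in this share. How many of all genes show the same was not counted, so it is not shown to be particular to Heyl. In rescaled TPM that transcript was at 5.001 ± 0.456 and 5.59 ± 0.763, with overlap, while ENSMUST00000127172.1 was at 0.518 ± 0.790 and 4.06 ± 2.37, without overlap (SD, n = 4 each). These transcript values are estimates by salmon at 277 to 380 reads for the whole gene.

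For the other genes the share of the main transcript overlapped between the groups. The main transcript of Lfng, ENSMUST00000031555.2, was at 16.4 to 16.7 rescaled TPM in the controls and at 5.85 to 8.16 with Ikzf1, without overlap. For Rbpj the main transcript, ENSMUST00000113865.4, was at 36.7 ± 6.43 and 22.5 ± 2.08 rescaled TPM without overlap. A minor Rbpj transcript, ENSMUST00000037618.12, went the other way, at 0.741 ± 0.775 and 2.85 ± 0.207 rescaled TPM. It held 1.37% of the gene's TPM in the controls and 7.10% with Ikzf1, without overlap in either measure. A minor Hey1 transcript, ENSMUST00000192102.1, did not overlap in either measure as well, at 7.02% and 12.2%. Such differences were not counted over all transcripts. Estimates for Rbpj transcripts also varied between libraries, with ENSMUST00000087360.8 at 29.6% in control replicate 1 and 0% in every other library. For Hes1 the main transcript, ENSMUST00000023171.7, was at 38.2 ± 3.31 and 17.9 ± 0.995 (SD, n = 4 each), again without overlap.

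**Figure D5:**
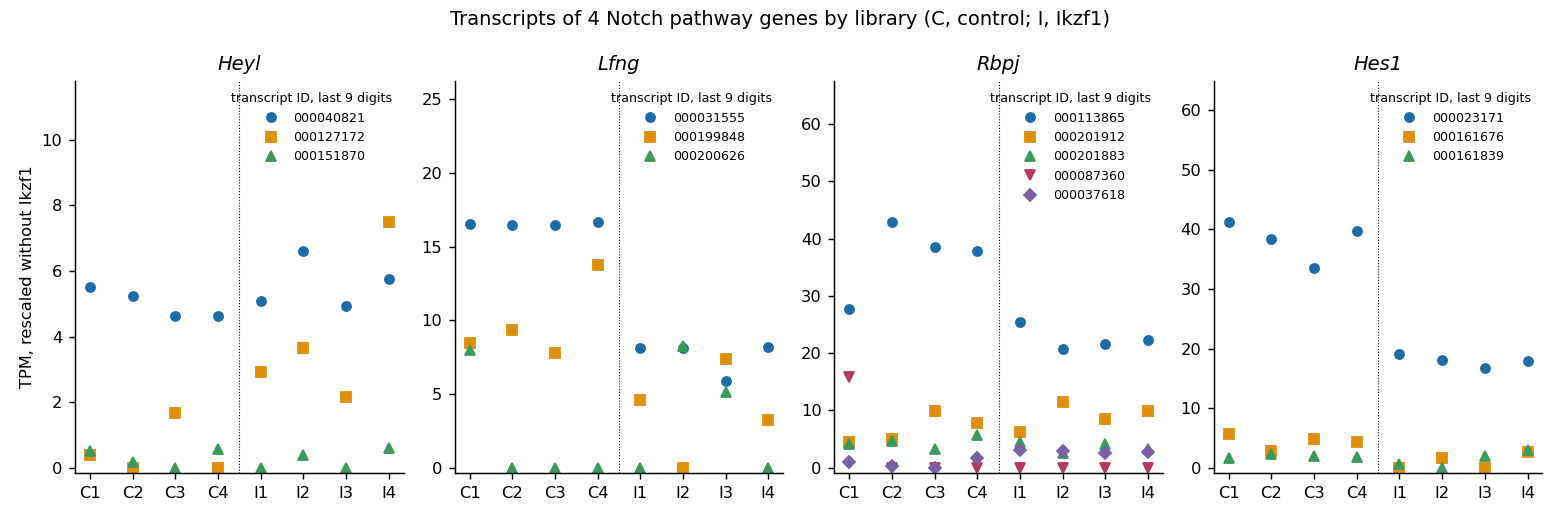
TPM rescaled without Ikzf1 (y axis, linear) of the transcripts of Heyl, Lfng, Rbpj and Hes1 with at least 4% of the gene in a group, in each library (C1 to C4, controls; I1 to I4, Ikzf1 libraries); each symbol is a transcript, named by the end of its Ensembl ID. For Heyl the orange transcript is at 0 to 1.67 in the controls and 2.15 to 7.48 with Ikzf1 while the blue one overlaps, and for Lfng, Rbpj and Hes1 the blue main transcript is lower with Ikzf1.

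A further 66 genes of the pathway, listed by role, were read in the same way, and 62 of them were tested. Of the 62, 23 were higher (37.1%), 14 lower (22.6%) and 25 did not pass, beside 29.3% and 29.8% of all genes. The share called in either direction, 59.7%, was close to the 59.0% of all tested genes. A log2 fold change of 1 or more in size was called for 11.3%, beside 11.4% of all tested genes. The largest rises were those of 2 non-canonical ligands related to Delta. Dlk1 went from 34.2 ± 3.40 to 104 ± 6.02 CPM (log2 fold change 1.61, edgeR adjusted p 2.79e-17), and Dlk2 from 1.23 ± 0.206 to 6.65 ± 0.915 CPM (2.43, edgeR adjusted p 1.99e-12; SD, n = 4 each). Neurl1b, a ubiquitin ligase for ligands, rose by 1.01, and the Groucho corepressor Tle2 by 1.00 on the log2 scale.

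Falls of at least 1 on the log2 scale were those of Bace1 (-1.30), Bend6 (-1.09) and Adam15 (-1.03). Bace1 encodes the beta-secretase, Bend6 a corepressor that binds Rbpj, and Adam15 a membrane protease. Furin, the convertase that cuts Notch during its maturation, was named after its value was seen and fell from 162 ± 10.8 to 86.8 ± 6.68 CPM without overlap (SD, n = 4 each; log2 fold change -0.90, edgeR adjusted p 5.20e-13). Of the remaining calls, the smallest p-values were those of the acetyltransferase Kat2b (0.59, edgeR adjusted p 5.11e-12) and the Deltex relative Dtx3l (0.55, edgeR adjusted p 4.14e-10) upward. Downward they were those of the corepressor Ctbp2 (-0.68, edgeR adjusted p 2.60e-13) and of Snw1, a factor of the Rbpj complex and of splicing (-0.67, edgeR adjusted p 4.35e-13). Of the 5 other gamma-secretase genes 2 were higher and 0 lower (40% called). Of the 9 genes of receptor turnover 5 were higher and 0 lower (55.6% called). Of the 17 corepressors tested 6 were higher and 5 lower (64.7% called). Among all tested genes 59.0% were called, 29.3% higher and 29.8% lower, and these short lists were not tested against that share.

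Since Hes factors are known to repress proneural genes, a list of proneural and related transcription factor genes is set beside Hes1. Olig2, Bhlhe22, Ptf1a and Insm1 are on it as related genes and are counted with the proneural genes. Of 10 tested, 1 was higher (10%), 4 were lower (40%) and 5 did not pass, beside 29.3% higher, 29.8% lower and 59.0% in either direction of all tested genes. The share called, 50%, was not above that background. Atoh7, a factor of early retinal neurons, fell from 31.7 ± 1.34 to 14.3 ± 0.999 CPM (SD, n = 4 each; log2 fold change -1.15, edgeR adjusted p 7.65e-14). Neurod4, at a log2 fold change of -0.69, and Olig2, at -0.74, were lower as well, and Bhlhe22, at 0.77, was the one that rose. Neurog2, named after its value was seen, was at -0.45 with an edgeR adjusted p of 0.0503. Rod precursor markers, were lower in 7 of 8 cases, and their part in these values was not tested.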

How the data were processed

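The 31 genes, the other lists and their roles were chosen with earlier results of these data known. The rule names every one of the 31, and of the other pathway and proneural genes those called with an absolute log2 fold change of at least 1 and, of the rest, the 2 of smallest p in each direction. A proneural gene that this rule names is not reported here.

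The deposited transcript files held estimated counts of read pairs and TPM, made with Salmon per the submitters' processing notes. The authors' deposited gene table held, per the file headers, the mean normalised count of each gene (a signal), the log2 fold change with an error, the Wald score and both raw and adjusted p-values, made with DESeq2 per the submitters' processing notes. Salmon's version and index are not given in the sources used here. Coordinates are those of that table (GRCm38). The CUT&RUN peak lists, on another build, were not used here.

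The transcript files name no genes. Transcripts were joined to genes by finding the run of at most 60 neighbouring transcripts whose scaled sum gave the gene's mean in the authors' table (relative tolerance 5e-09, then 2e-08 among those left). A mean of 5 or more was required, which 16815 genes had, and 16750 of them (99.6%) found their run. When the means were moved slightly, 70 (0.416%) still found a run. Joined genes took up 99.2 to 99.4% of each library.

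Sums were rounded to whole numbers, filtered with filterByExpr, scaled by TMM and tested by robust two-sided quasi-likelihood in edgeR 4.0.16, adjusted over all 15597 tested genes, threshold 0.05, in R 4.3.3. Standard errors are the absolute log2 fold change over the root of F. CPM uses TMM-scaled library sizes. TPM differences used a pseudocount of 1. The tests were checked on simulated counts. DESeq2 1.42.0, other scalings, no filter, a length correction, a replicate block and each library left out were tried, and a test against a fold of 1.5 was added after the data were seen. Control and Ikzf1 libraries with the same replicate number showed no common deviation (Pearson r -0.05 to 0.01 across genes).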

Additional observations from a re-analysis of the deposited data

Results flagged for a closer look

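Each of the 31 genes was looked at in both groups of 4 libraries, 62 groups in all, for a library standing apart by more of the range than Dixon's 95% limit allows. This was so in 3 groups, and chance alone does it in about 1 of 20. The Notch3 level of 19.6 CPM in Ikzf1 replicate 4 lay above 16.1 to 16.4 CPM in its group (a gap of 0.916 of the range) and inside the range of the controls. The Rfng level of 27.0 CPM in control replicate 1 lay above 22.9 to 23.4 CPM (gap 0.881). The Adam17 level of 58.1 CPM in control replicate 3 lay below 62.6 to 63.5 CPM (gap 0.838).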

How the results depend on the processing

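The log2 fold changes of the 31 genes were compared under 15 alternatives, and of 465 values 429 kept their direction and their side of the threshold. Of the 22 called genes, 16 did so in all 14 alternatives other than the test against a fold of 1.5, and 0 changed direction. DESeq2, DESeq2's size factors, TMM without Ikzf1 and no filter each gave 9 genes higher and 13 lower. The length correction gave 8 lower, with the lost calls named above, and turned Ncstn to -0.060; the cause was not tested. Tested against a fold of 1.5, 2229 genes of all tested passed (14.3%), and 4 Notch pathway genes were higher (Dll4, Jag1, Mfng, Hey1) and 5 lower (Dll3, Notch1, Lfng, Maml3, Hes1). On that test 4 of the other pathway genes were higher, 5 were lower, and 3 proneural genes passed. Rescaling TPM without Ikzf1 moved the median difference of the 31 genes from -0.34 to -0.071, and the longer motif GTGGGAA lay in 4 promoters against 7.

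With 1 library left out at a time, 8624 to 9036 genes passed, with 9 to 10 Notch pathway genes higher and 13 to 14 lower. Of genes that did not pass, Adam10 then ranged from -0.017 to 0.051, Hes6 from -0.069 to 0.0040, Ncstn from -0.025 to 0.028, Hes5 from -0.21 to 0.0054 and Numbl from -0.0096 to 0.084. With a replicate block 8892 genes passed, and 9 of the 31 genes were higher and 14 lower, with Notch2 gained (-0.14, edgeR adjusted p 0.0285). Libraries with the same replicate number showed no common deviation across genes, which cannot tell whether they were prepared together. Genes with few reads, such as Notch4 (61 to 193 reads per library), limit the precision.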
